A study of Drosophila melanogaster with 3 samples.

Results

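The 33 axon guidance and adhesion genes described here were taken by name, from a list of receptors, cues, adhesion molecules and a sorting factor of the growth cone, out of 13945 protein-coding genes on the main chromosome arms of Drosophila melanogaster. They were set against the sites bound by Dbx, a homeodomain transcription factor of interneurons in the embryonic nervous system. Chromatin immunoprecipitation with sequencing (ChIP-seq) had been done with an antibody against GFP on whole embryos of strain Dbx-GFP, aged 8 to 24 h, which carried an inserted transgene for a Dbx-eGFP fusion protein. The 3 samples were biological replicates of this 1 group, so every library carried the fusion and no second genotype, age or treatment was compared. All 3 came from the same strain, and a control experiment mentioned in the labels was not analysed here. In chromatin of whole embryos, strong occupancy in few cells and weak occupancy in many cannot be told apart, and a peak says nothing of whether a gene was transcribed.

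Growth cones steer by reading attractive and repulsive cues. In the fly ventral nerve cord, Slit from midline cells repels axons that carry Robo receptors, Netrins attract through Frazzled and repel with Unc-5, and Commissureless holds Robo back from the surface of axons that are crossing. Semaphorins signal through Plexins, and cell surface proteins of the immunoglobulin, leucine-rich repeat and teneurin families hold axons in bundles and match them to their targets.

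Peak summits of the authors' conservative list lay nearest to the start site of 20 of the 33 genes (60.6%), against 23.4% of all protein-coding genes. The gene was assigned to a summit by the nearest annotated transcription start site (TSS) of any protein-coding gene. Most of the 33 genes are long, and the contrast differed by length. For genes of 10 to 50 kb it was 6 of 14 (42.9%), against 45.2% of all genes of that length. For those of 50 kb or more it was 11 of 13 (84.6%), against 49.2%, and under 10 kb 3 of 6 (50%), against 19.7%. In the conservative list 9 of 11 adhesion molecules, 6 of 12 receptors and 4 of 9 cues were reached. The comm gene, for the sorting factor Commissureless, had 1 summit. The group with the highest share was not the same in each replicate, and the groups are small. It was adhesion molecules in replicate 1 (9 of 11), against 18.6% of all genes. In replicate 2 it was cues (5 of 9), against 17.9%. In replicate 3 it was receptors (4 of 12), with adhesion molecules close behind (3 of 11), against 14.1%. The highest placed sites lay at PlexA, unc-5, side, tutl and Wnt5, and 4 of these 5 lay outside the promoter window of 250 bp around a start site. The robo1, robo3, Eph, Ephrin and beat-Ia genes had no summit inside them or within 2000 bp in any of the 5 thresholded lists used. Over the 3 replicate lists alone, 8 of 33 genes had none by this rule (24.2%), against 61.0% of all genes.

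The sequence at 6 of the best placed sites is printed to show what the immunoprecipitated fusion was found on, in the strand of the gene, 5′ to 3′, from the RefSeq sequence of the dm6 assembly. Each run spans 100 bp either side of the summit, except Lar, which was shortened to 139 bases to leave out annotated untranslated sequence. Capitals mark a match, on either strand, to 1 of 8 words that were searched, namely TAATTA (a homeodomain core), GAGAG (the GAGA repeat), TATCGATA (the DRE core), GGTCACACT, CAGCTG (an E-box), CACACACA, TATAAA (the TATA box) and CAGGTAG (the Zelda word).
PlexA: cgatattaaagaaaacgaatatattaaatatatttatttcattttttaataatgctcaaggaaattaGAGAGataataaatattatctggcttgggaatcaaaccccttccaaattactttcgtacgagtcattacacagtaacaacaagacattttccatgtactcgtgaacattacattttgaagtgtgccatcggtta
side: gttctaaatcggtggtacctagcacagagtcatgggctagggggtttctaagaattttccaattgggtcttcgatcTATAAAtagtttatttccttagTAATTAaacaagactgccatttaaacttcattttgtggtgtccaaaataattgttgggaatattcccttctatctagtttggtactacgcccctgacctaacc
tutl: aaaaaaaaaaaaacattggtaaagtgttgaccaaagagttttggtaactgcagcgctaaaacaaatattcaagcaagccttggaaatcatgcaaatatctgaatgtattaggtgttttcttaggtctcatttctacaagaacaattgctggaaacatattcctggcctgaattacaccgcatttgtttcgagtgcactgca
Wnt5: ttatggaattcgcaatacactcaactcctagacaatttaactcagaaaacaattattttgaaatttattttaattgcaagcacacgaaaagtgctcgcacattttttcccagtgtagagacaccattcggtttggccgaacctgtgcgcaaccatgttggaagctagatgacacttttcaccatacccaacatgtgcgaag
Lar: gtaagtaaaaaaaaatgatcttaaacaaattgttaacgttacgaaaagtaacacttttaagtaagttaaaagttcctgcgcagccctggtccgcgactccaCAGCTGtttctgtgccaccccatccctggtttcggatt
Sema1a: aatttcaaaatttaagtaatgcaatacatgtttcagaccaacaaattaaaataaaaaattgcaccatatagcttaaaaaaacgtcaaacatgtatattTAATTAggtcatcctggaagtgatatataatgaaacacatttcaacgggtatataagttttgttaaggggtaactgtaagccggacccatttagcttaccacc
The PlexA run is chr4:1027175-1027375 on the minus strand, a promoter, and holds GAGAG. The side run is chr3R:27407142-27407342 on the minus strand, in an intron, and holds TATAAA and TAATTA. The tutl run is chr2L:4282671-4282871 on the plus strand, between genes, and the Wnt5 run is chrX:18507185-18507385 on the minus strand, in an intron of Ggt-1, and neither holds any of the 8 words. The Lar run is chr2L:19587087-19587225 on the plus strand and holds CAGCTG, and the Sema1a run is chr2L:8541894-8542094 on the plus strand and holds TAATTA. Both are promoters.

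Of the 8 words, GAGAG was the one that differed most in share between summits nearest to these genes and all conservative summits. TAATTA was present in 3 of the 28 windows of 201 bp around summits nearest to the 33 genes (10.7%), against 13.1% of windows at all conservative summits and 9.36% of windows at all protein-coding start sites. GAGAG was present in 12 of 28 (42.9%), against 27.4% at all summits and 24.9% at all start sites. At promoters alone, GAGAG was in 9 of 17 windows (52.9%), against 26.5% at all promoter summits, and the 9 were those of PlexA, Ten-a, caps, Nrg, trn, Fas2, Dscam1, sli and Ten-m. The start sites of the 33 genes held it in 24 of 56 windows (42.9%) whether or not a summit lay there, although windows of neighbouring start sites overlap. Other words differed there too. CACACACA was in 12 of the 56 (21.4%), against 4.01% of all start sites, and TATAAA in 8 (14.3%), against 26.8%. TATAAA was present in 6 of 28 windows (21.4%), against 27.9% at all summits and 26.8% at all start sites. CAGCTG was in 3 (10.7%), against 11.2% and 13.5%, and TATCGATA in 1 (3.57%), against 5.34% and 6.43%. CACACACA was in 2 (7.14%), against 5.14% and 4.01%. GGTCACACT and CAGGTAG were in none of the 28, against 2.47% and 0.87% of all summits and 4.43% and 1.08% of all start sites. A match is a run of letters and not a binding site, and these shares were not tested.

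The number of genes reached depended on which replicate was read. Replicate 1 had a summit nearest to 20 of the 33 genes (60.6%), against 18.6% of all protein-coding genes. Replicate 2 had 15 (45.5%), against 17.9%, and replicate 3 had 9 (27.3%), against 14.1%. The mean was 44.5% ± 16.7 (SD, n = 3) of the 33 genes, against 16.9% ± 2.42 (SD, n = 3) of all genes, and in each replicate the 33 genes lay above the share of all genes. Taken within replicates, the share of the 33 genes minus that of all genes was 42.0, 27.6 and 13.2 percentage points in replicates 1, 2 and 3, a mean of 27.6 ± 14.4 (SD, n = 3). The replicate lists held 3701, 3353 and 2519 peaks, and the conservative list 4943. The part of list length in these counts was not tested, and the read depth behind the lists is unknown.

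A broader rule took every summit from 2000 bp before to 2000 bp past a gene, so that 1 summit can count for several genes. It gave 22 of 33 genes in the conservative list (66.7%), against 39.3% of all genes. It gave 21 in replicate 1 (63.6%), against 32.4% of all genes. It gave 17 in replicate 2 (51.5%), against 31.3%, and 11 in replicate 3 (33.3%), against 25.4%. The mean over replicates was 49.5% ± 15.3 (SD, n = 3) of the 33 genes, against 29.7% ± 3.76 (SD, n = 3) of all genes. Within replicates the difference was 31.2, 20.2 and 7.91 percentage points, a mean of 19.8 ± 11.7 (SD, n = 3).

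At promoters the share of the 33 genes was above that of all genes in replicates 1 and 2 and level with it in replicate 3. A summit lay within 250 bp of an own start site for 17 of 33 genes in the conservative list (51.5%), against 20.7% of all genes. Replicate 1 likewise had 17 (51.5%), against 16.2%, and replicate 2 had 11 (33.3%), against 15.6%. In replicate 3 the count was 4 (12.1%), which is close to the 11.7% of all genes. The mean was 32.3% ± 19.7 (SD, n = 3), against 14.5% ± 2.44 (SD, n = 3) of all genes. Within replicates the difference was 35.3, 17.7 and 0.375 percentage points, a mean of 17.8 ± 17.4 (SD, n = 3), so its spread was about as large as the difference itself. Without replicate 1, conservative peaks found in both other replicates gave a promoter summit to 3 of 33 genes (9.09%), against 10% of all genes. Without replicate 2 the count was again 3 (9.09%), against 9.8%, and without replicate 3 it was 8 (24.2%), against 12.1%.

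**Figure D1:**
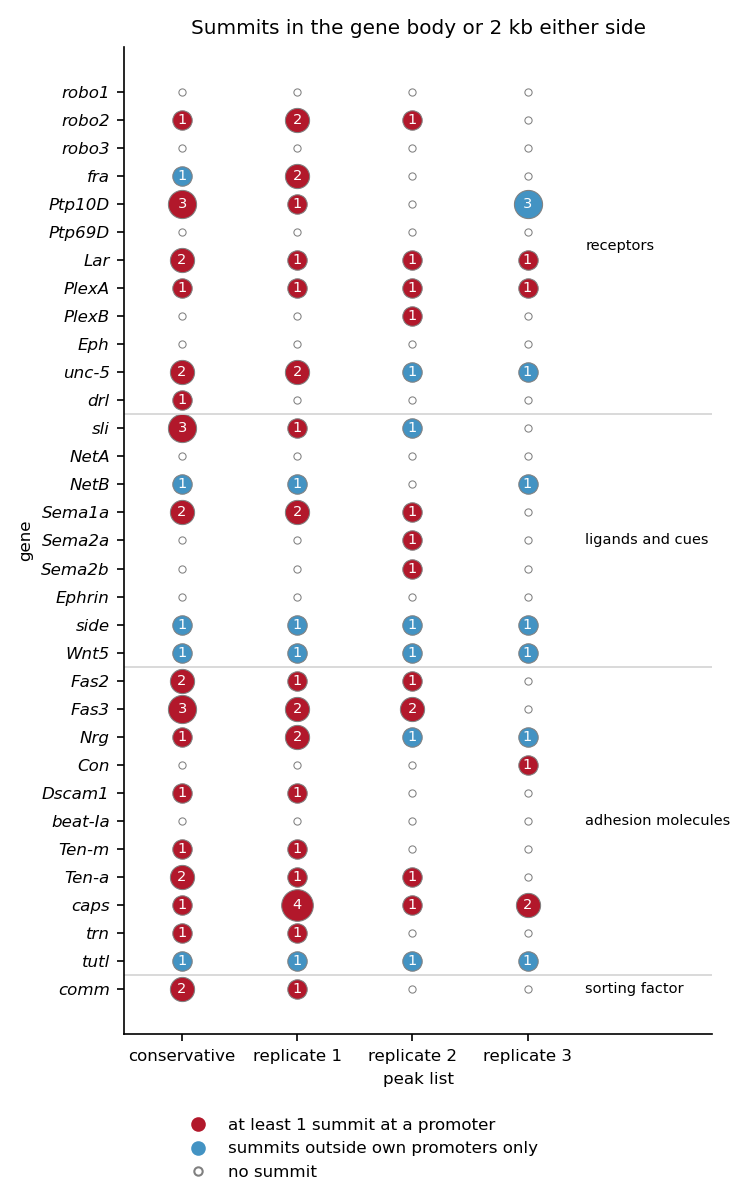
Number of peak summits in each of the 33 genes with 2 kb on each side (rows, by role) in the conservative list and the list of each replicate (columns), with red for genes with a summit at an own promoter, blue for genes with summits elsewhere only, and small open circles for none. Red marks stand at 17 genes in replicate 1 (51.5%, against 16.2% of all genes). They stand at 4 in replicate 3 (12.1%, against 11.7%).

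The 33 genes differed from the average gene in length and in number of start sites. They had 56 start sites, 1.7 per gene against 1.41 over all genes, and a median length of 40.4 kb against 2.17 kb. A conservative summit lay within 250 bp of 21 of the 56 start sites (37.5%), against 17.9% of all 19607 start sites. Of the 21, 4 belonged to Nrg and shared 1 summit, and 2 belonged to Dscam1 and shared another. Per start site, replicate 1 had 39.3% against 14.1%, replicate 2 had 19.6% against 13.3%, and replicate 3 had 7.14% against 10%, so the order was turned round in replicate 3. Per length, the bodies and flanks of the 33 genes held 17.6 summits per Mb. The merged bodies and flanks of all genes held 45.4 per Mb, and density was not compared at like gene length.

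Among the 19 genes with a single start site, 10 had a promoter summit (52.6%), against 15.7% of all genes with a single start site. Among the 10 with 2 start sites 4 did (40%), against 29.8%, and among the 4 with 3 or more 3 did (75.0%), against 44.7%. Split by length, a summit in the body or flanks was found for 3 of 6 genes under 10 kb (50%), against 36.0% of all genes of that length. It was found for 7 of 14 genes of 10 to 50 kb (50%), against 58.4%, and for 12 of 13 genes of 50 kb or more (92.3%), against 63.8%. The middle length class thus lay below its background, and Con, which codes for the homophilic adhesion protein Connectin, was the long gene with none.

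**Figure D2:**
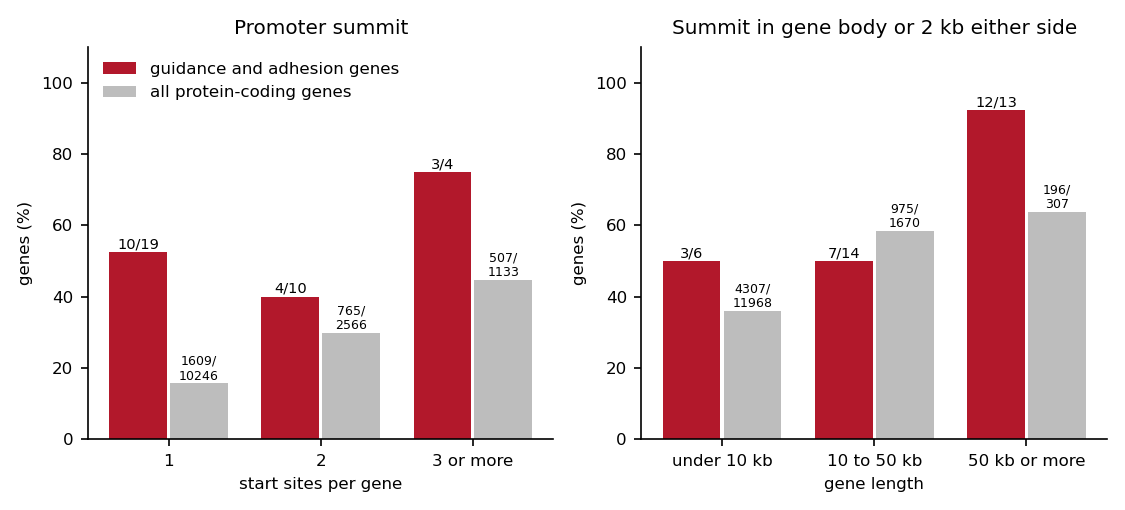
Share of genes (%) with a conservative summit at a promoter by number of start sites per gene (left), and anywhere in the gene with 2 kb on each side by gene length (right), for the 33 guidance and adhesion genes (red) and all protein-coding genes (grey), with counts over the bars. The red bars stand above the grey ones in every class except genes of 10 to 50 kb, at 50% against 58.4%.

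Receptors and receptor phosphatases held the 2 highest placed sites of the set in the conservative list and in replicates 1 and 2. PlexA, which codes for the Plexin that receives Sema1a, had 1 summit, 174 bp upstream of its only start site, in a narrow peak of 236 bp at chr4:1027156-1027391. By the authors' signal value this peak ranked 306 in the conservative list, 369 in replicate 1, 528 in replicate 2 and 184 in replicate 3. Each of the 4 lists gave it the lowest irreproducible discovery rate (IDR) that is listed, 1e-05, which no other promoter of the set reached.

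The unc-5 gene, for a Netrin receptor that mediates repulsion, had its main summit 801 bp upstream of a start site, between genes, in a peak of 168 bp at chr2R:15339574-15339741. It ranked 449 in the conservative list, 368 in replicate 1, 504 in replicate 2 and 435 in replicate 3. It ranked above PlexA in replicates 1 and 2 and below it in the conservative list and replicate 3. In replicate 3 the side site, at rank 404, also lay above it. A further unc-5 summit, 85 bp upstream of its other start site, ranked 2265 in the conservative list and 1643 in replicate 1 and was in neither other replicate list. There the strongest ranked peak at an unc-5 promoter had an IDR of 0.0118 in replicate 2, just past the authors' limit of 0.01, and of 0.313 in replicate 3.

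Lar, a receptor tyrosine phosphatase, had a summit 49 bp upstream of 1 of its 4 start sites, at chr2L:19586977-19587376, the sequence of which is given above. It ranked 1502 in the conservative list, 1339 in replicate 1, 2169 in replicate 2 and 1775 in replicate 3, and was the only receptor promoter besides PlexA in all 3 replicate lists. A weaker Lar summit, rank 4435, lay in an intron, 16757 bp past another of its start sites, and was in no replicate list. Ptp10D, another receptor phosphatase, had an intron summit 1101 bp from its start at conservative rank 2258, called in replicate 3 alone at rank 1907, and a promoter summit at conservative rank 3403, called in replicate 1 alone at rank 2542. Both sites had ranked peaks in all 3 replicates. The promoter peak of Ptp10D missed the limit narrowly in the other replicates, with an IDR of 0.0123 in replicate 2 and 0.0113 in replicate 3.

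Among the Robo receptors only robo2 had a thresholded peak in any list. Its summit lay 33 bp into the gene and ranked 2304 in the conservative list, 1538 in replicate 1 and 2873 in replicate 2, with none in replicate 3. The strongest ranked promoter peak of robo1 had an IDR of 0.455, 0.173 and 0.783 in replicates 1, 2 and 3, far past the limit. That of robo3 had 0.822 in replicate 1 and 0.78 in replicate 3, with no ranked promoter peak in replicate 2.

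The remaining receptors had no peak that recurred between replicate lists. The drl gene, for a Ryk-type receptor of Wnt5, had a promoter summit at conservative rank 3399 and no thresholded peak in a replicate, its IDR being 0.0404 in replicate 1. For fra, the Netrin receptor Frazzled, a promoter peak at rank 2120 was called in replicate 1 and was not in the conservative list, where an intron summit in fra lay nearest to CG33752. PlexB, the Plexin of the secreted Semaphorins, had a promoter peak in replicate 2 alone, at rank 3004 there. Ptp69D, a receptor phosphatase, and Eph, a receptor tyrosine kinase, had no peak in the conservative or replicate lists, and Eph had no ranked promoter peak in any replicate.

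**Figure D3:**
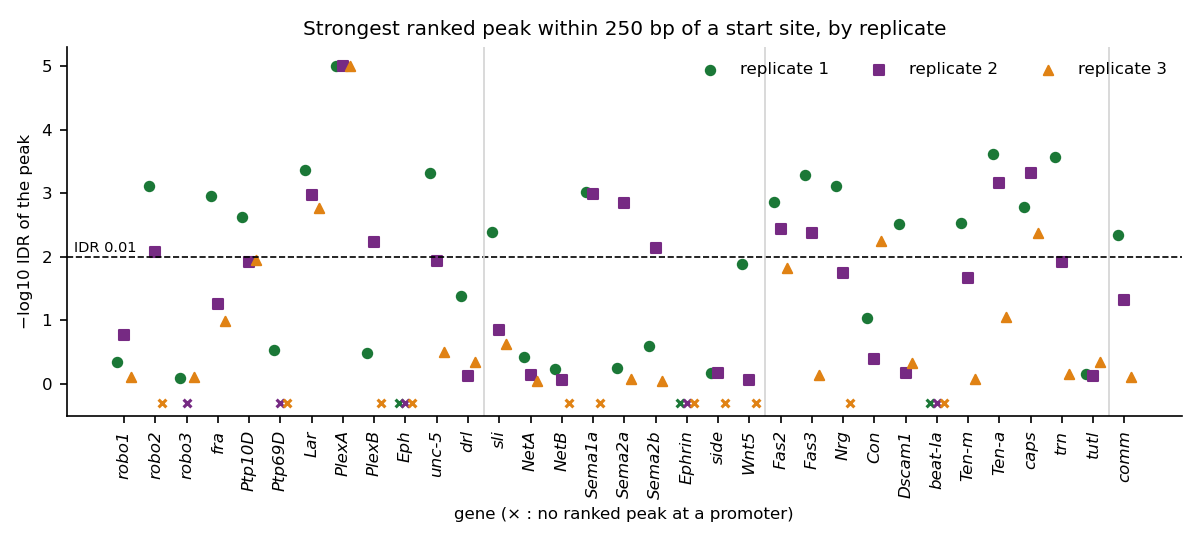
For each of the 33 genes (grouped as receptors, cues, adhesion molecules and comm, left to right), −log10 IDR of the ranked peak of highest signal within 250 bp of a start site in each replicate, with crosses where none was ranked and a dashed line at the authors' limit, an IDR of 0.01. Only PlexA, Lar and caps pass the limit in all 3 replicates (9.09% of the 33 genes, close to the 8.86% of all genes). Many other genes pass it in replicate 1 and miss it in replicate 3.

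Among ligands and presented cues, the 2 sites found in all 3 replicate lists, at side and Wnt5, lay away from promoters. The side gene codes for Sidestep, a cue on muscle and other tissue that motor axons follow through Beat-Ia, and its summit lay in an intron, 30240 bp into the gene, in a peak of 171 bp at chr3R:27407155-27407325. It ranked 655 in the conservative list, 1254 in replicate 1, 715 in replicate 2 and 404 in replicate 3. The summit position differed by 2 bp at most between lists, since it was 27407242 in the conservative list and replicates 1 and 2 and 27407244 in replicate 3. The beat-Ia gene, for the receptor of Sidestep and placed here with the adhesion molecules, had no thresholded summit and no ranked promoter peak in any replicate.

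Wnt5, the Wnt ligand that is read by Derailed, had its summit 1880 bp upstream of its start, in an intron of the neighbouring gene Ggt-1, at chrX:18507085-18507484. It ranked 1304 in the conservative list, 1159 in replicate 1, 1163 in replicate 2 and 1718 in replicate 3. Assignment to Wnt5 rests on distance alone, since the site lies within another gene.

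Sema1a, a transmembrane Semaphorin and the ligand of PlexA, had a promoter summit 153 bp upstream at chr2L:8541794-8542193. It ranked 1670 in the conservative list, 1663 in replicate 1 and 2237 in replicate 2, and no peak was ranked at a Sema1a promoter in replicate 3. Starts of the transfer RNA genes tRNA:Asp-GTC-1-4 and tRNA:Asp-GTC-1-5 lay 371 and 233 bp from the summit, so the peak is not attributable to the Sema1a promoter alone. The sli gene, for the midline repellent Slit, had an intron summit at conservative rank 2493 that no replicate list held, and a promoter summit at rank 3561 that replicate 1 held at rank 2772. A further summit in its downstream flank, rank 2642, lay at the promoter of Rif1.

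For the secreted Semaphorins, replicate 2 alone had promoter peaks, at rank 2061 for Sema2a and rank 3008 for Sema2b, and neither was in the conservative list. NetA, for a Netrin, had no summit in the conservative or replicate lists, and the summit in an intron of NetB, rank 2728, lay nearest to the gene hog. Ephrin, the ligand of Eph, had none in any thresholded list. The Eph and Ephrin genes, PlexA and PlexB all lie on chromosome 4, so the small chromosome held the highest placed gene of the set in the conservative list.

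Among adhesion molecules, 8 of 11 genes had a promoter summit in the conservative list (72.7%), against 20.7% of all genes. Replicate 1 had a promoter summit for 8 of the 11 (72.7%), against 16.2% of all genes. Replicate 2 had 4 (36.4%), against 15.6%, and replicate 3 had 2 (18.2%), against 11.7%, the same counts as receptors had in those replicates. The caps gene, for the leucine-rich repeat protein Capricious, was the only adhesion gene with a promoter summit in all 3, 105 bp into the gene at chr3L:13228597-13228996. It ranked 1781 in the conservative list, 2345 in replicate 1, 1488 in replicate 2 and 1851 in replicate 3. Its close relative trn, for Tartan, had a promoter summit at conservative rank 2957 and rank 1208 in replicate 1, and an IDR of 0.0124 in replicate 2 and 0.702 in replicate 3.

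The tutl gene, for the immunoglobulin superfamily protein Turtle, had the highest placed site of the adhesion molecules, 377 bp upstream of its start site and thus outside the promoter window, in a peak of 143 bp at chr2L:4282708-4282850. It ranked 1108 in the conservative list, 1260 in replicate 1, 890 in replicate 2 and 1191 in replicate 3. No list called a peak within 250 bp of a tutl start site.

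Fas3, for the homophilic adhesion protein Fasciclin 3, had the most conservative summits assigned to it, 3, although 2 of them came from overlapping peaks. Its promoter summit ranked 2706 in the conservative list, 1477 in replicate 1 and 2671 in replicate 2. The pair of intron summits, 5194 and 5393 bp into the gene at conservative ranks 2441 and 4360, corresponded to 1 peak in replicate 1, at rank 1890, and 1 in replicate 2, at rank 3109. Replicate 3 had no thresholded Fas3 peak, with an IDR of 0.0141 at the intron site and 0.726 at the promoter. Fas2, for Fasciclin 2 of longitudinal axon bundles, had a promoter summit at conservative rank 3149, replicate 1 rank 2015 and replicate 2 rank 2198, and an IDR of 0.0148 in replicate 3. Its intron summit, rank 4069, was in no replicate list.

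The teneurin Ten-a had a promoter summit 18 bp upstream of 1 of its 5 start sites, at conservative rank 1728, replicate 1 rank 1177 and replicate 2 rank 1695, with no thresholded peak in replicate 3. An intron summit of Ten-a at rank 3624 was in no replicate list. The other teneurin, Ten-m, Nrg, the fly L1-type adhesion molecule Neuroglian, and Dscam1, whose many spliced isoforms let branches of 1 neuron recognise each other, had promoter summits at conservative ranks 4114, 2408 and 3228. In the replicates these were called in replicate 1 alone, at ranks 2607 for Ten-m, 1830 for Nrg and 2163 for Dscam1. Away from its promoters, Nrg also had a summit in its body or flanks in replicates 2 and 3, nearest to another gene. Con had a promoter peak in replicate 3 alone, at rank 2042, and none in the conservative list. The comm promoter, 45 bp into the gene, ranked 3948 in the conservative list and 3137 in replicate 1 and was in neither other list.

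**Figure D4:**
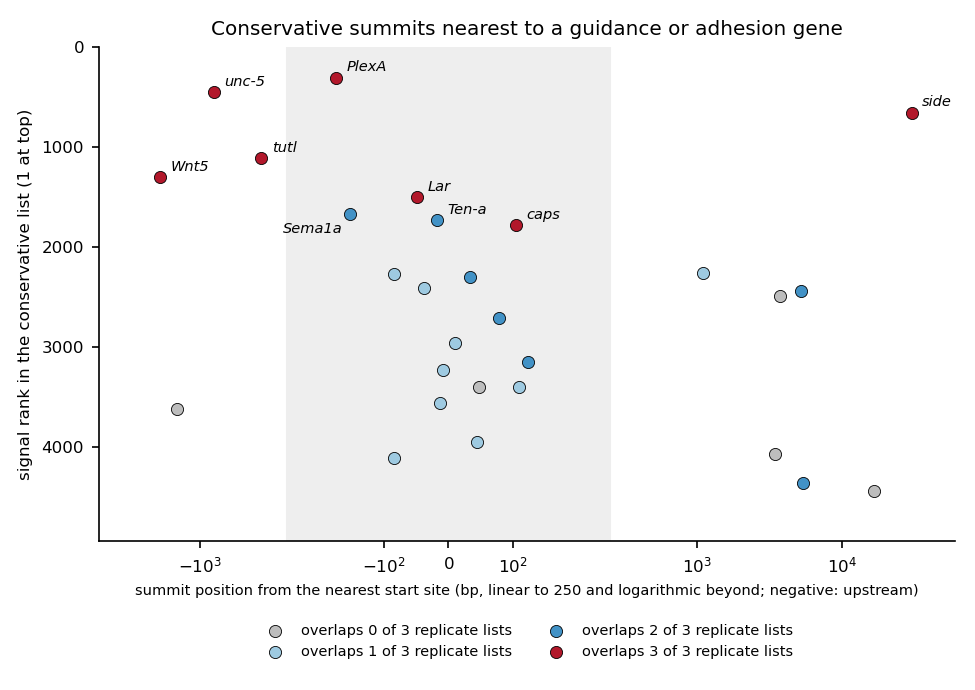
Position (bp) from the nearest start site, upstream negative, and signal rank in the conservative list, 1 at the top, of the 28 summits nearest to the 33 genes, coloured by the number of replicate lists whose peaks overlap, with the promoter window of 250 bp either side shaded. The 7 summits found in all 3 replicate lists, in red, rank between 306 and 1781, and 4 of the 7 lie outside the shaded window.

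As sites, the 28 conservative summits nearest to the 33 genes ranked like the list as a whole, with a median rank of 2467 against 2472 over all 4943 summits. Of the 28, 17 were promoter summits (60.7%), against 51.4% of all summits, 9 lay in introns (32.1%), against 30.5%, and 2 between genes (7.14%), against 13.9%. A peak in all 3 replicate lists overlapped 7 of the 28 (25%), against 36.2% of all summits, and 5 overlapped none (17.9%), against 20.5%. Counted as genes, 7 of 33 had the closest start site to a summit in every replicate list (21.2%), against 10.3%, and 24 of 33 in at least 1 (72.7%), against 24.2%. The 7 were PlexA, unc-5, side, tutl, Wnt5, Lar and caps. In gene bodies and flanks, these and Nrg, 8 of 33 (24.2%), had a summit in every replicate list, against 20.9% of all genes. For promoters alone, 3 of 33 genes had a summit in all 3 replicate lists (9.09%), which is close to the 8.86% of all genes.

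The promoter summits leaned on replicate 1 more than promoter summits elsewhere did. How the conservative list pools the replicates is not stated, and overlap with each of them rests on that step. Of the 17 promoter peaks, 16 overlapped a peak of replicate 1 (94.1%), against 69.2% of all conservative promoter peaks. With replicate 2 the count was 8 (47.1%), against 66.1%, and with replicate 3 it was 3 (17.6%), against 46.9%. Outside promoters the 11 summits followed the list more closely, at 54.5% against 60.5% in replicate 1, 54.5% against 57.1% in replicate 2 and 45.5% against 45.6% in replicate 3. These differences between shares were not tested.

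**Figure D5:**
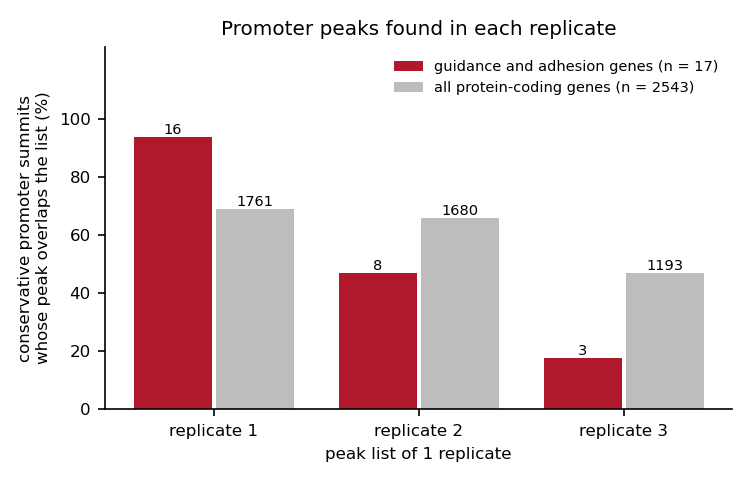
Share (%) of conservative promoter peaks that overlap a peak in the list of each replicate, for the 17 of the 33 guidance and adhesion genes (red) and the 2543 of all protein-coding genes (grey), with counts over the bars. The red bar stands above the grey one for replicate 1 and below it for replicates 2 and 3.

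Base composition also differed between these promoters and others, and between replicates. The 17 promoter windows averaged 47.0% GC, against 41.1% for all conservative promoter windows. The 56 start sites of the 33 genes averaged 47.3% whether or not a summit lay there, against 42.3% for all start sites. The 11 summit windows outside promoters averaged 36.8%, against 39.4%. Over all promoter summits the mean was 40.9% GC in the replicate 1 list, 39.7% in replicate 2 and 36.9% in replicate 3. For the 33 genes it was 46.2% in replicate 1 (20 summits), 44.9% in replicate 2 (11 summits) and 42.7% in replicate 3 (4 summits), with medians of 47.0%, 44.3% and 45.0% that did not fall between replicates 2 and 3. The part of base composition in the counts per replicate was not tested.

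With the authors' limit set aside, the promoters of these genes were commonly listed. These counts include the peaks that pass the limit. A ranked peak of any IDR lay at a promoter of 30 of the 33 genes in replicate 1 (90.9%), against 59.4% of all genes. It did so for 28 in replicate 2 (84.8%), against 61.2%, and 22 in replicate 3 (66.7%), against 51.2%. The median rank of the strongest such peak was 2955 in replicate 1, against 8966 over all genes with one, among 78296 ranked peaks. In replicate 2 it was 3710, against 11559 among 98760, and in replicate 3 it was 5295.5, against 13020 among 85601. Eph, Ephrin and beat-Ia were without a ranked promoter peak in every replicate. Replicate 3 thus ranked a promoter peak for 22 of the 33 genes and called one for 4 (12.1%). Over all genes it ranked one for 7136 and called one for 1638 (11.7%).

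Related genes of the same pathways were counted in the same way. Of 39 other guidance receptors and ligands, which include further Beat, Side, Wnt receptor and proteoglycan genes, 14 were nearest to a conservative summit (35.9%), against 23.4% of all genes, and 9 had a promoter summit (23.1%), near the 20.7% of all genes. The share per replicate averaged 19.6% ± 1.5 (SD, n = 3), close to the 16.9% of all genes. Among them dlp, for the glypican Dally-like, side-IV and the kinase gene Abl had sites in all 3 replicate lists, at conservative ranks 627, 968 and 1016. No conservative summit was nearest to beat-Ib, beat-Ic or the 3 beat-III genes, whereas beat-IIa was nearest to 1. Counted in gene bodies and flanks, beat-Ib had 5 summits and beat-VII 2. Like beat-Ia, beat-Ic and the 3 beat-III genes had none in the conservative list by either rule.

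Of 39 other adhesion molecules, 14 were nearest to a conservative summit (35.9%), against 23.4% of all genes, and 9 had a promoter summit (23.1%), near the 20.7% of all genes. The share per replicate by nearest start site was 26.5% ± 7.45 (SD, n = 3), against 16.9% of all genes. Toll-7, a leucine-rich repeat receptor, ranked 256 from a site between genes 278 bp upstream, the synaptic adhesion gene Nrx-1 ranked 644 and the integrin gene mys ranked 1283, each in all 3 replicate lists. The cadherin gene CadN and the 3 other Dscam genes had none, and neither did the 4 neuroligin genes Nlg1 to Nlg4.

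Growth cone effectors act inside the cell downstream of these receptors. By nearest start site and promoter they were reached about as often as the 33 genes in the replicates, and more evenly. Of 37 annotated effectors, 18 were nearest to a conservative summit (48.6%), against 23.4% of all genes, and 17 had a promoter summit (45.9%), against 20.7%. The share per replicate by nearest start site averaged 41.4% ± 6.24 (SD, n = 3), against 16.9% of all genes. At promoters the 33 genes averaged 32.3% ± 19.7 and the effectors 35.1% ± 2.7 (SD, n = 3 each), against 14.5% of all genes. In gene bodies and flanks the effectors stood higher, at 62.2% ± 2.7 against 49.5% ± 15.3 (SD, n = 3 each), with 29.7% of all genes. The giant ankyrin gene Ank2 ranked 164, the GTPase activator gene RhoGAP93B, whose product binds Robo, ranked 194, and the cytoskeletal linker gene shot ranked 221, all in all 3 replicate lists and all above PlexA. Abl is counted in this list and among the other guidance genes.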

How the data were processed

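Anti-GFP ChIP-seq of Dbx-eGFP was done on 3 biological replicates of whole embryos aged 8 to 24 h, with chromatin sonicated to 200 to 800 bp, per the labels. The authors deposited peak lists on dm6, ranked and thresholded by IDR. The summit offset, the signal and, in the ranked lists, −log10 of the IDR of each peak are the authors' deposited values. Peaks in the conservative and replicate thresholded lists had an IDR of at most 0.01. Peaks of the longest thresholded list were not matched to an IDR. Signal was used only to rank peaks within a list. The aligner, the caller and the way replicates enter each series-level list were not given in the sources used. Since depth is unknown, intervals were not computed. The 32 columns of unnamed single samples in the 4 series-level ranked lists were not used. The labels' antibody field names Dbx and the description names GFP, which was taken as the antibody. Age comes from the source name, because the age field holds a value that no embryo can have.

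Summits (1-based) were assigned to the nearest start site of a protein-coding gene in the Ensembl release 115 annotation. They were also counted in gene bodies with 2000 bp either side and within 250 bp of own start sites. Of 30593 annotated start codons, 99.83% read ATG in the RefSeq dm6 sequence. Overlap between lists was 1 bp or more. The gene list, the lists of related genes and the tests were chosen with earlier results of these data known, so counts are set beside the share of all genes with no test. Gef64C and dab, of 39 listed effectors, were not in the annotation. Genes given in full were those with a conservative summit in all 3 replicate lists, those with most conservative summits and those of highest rank. Words were counted within 100 bp of summits. Python 3.11.15, pandas 2.3.3, numpy 2.4.6, biopython 1.88 and matplotlib 3.10.9 were used. Assignment and counting were tested on simulated data. Alternatives were other lists, a stricter IDR, other windows, flanks and overlaps, leaving out each replicate, and putting back 152 peaks with an IDR of at most 0.01 that the conservative list lacks. The last was chosen after seeing the data.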

Additional observations from a re-analysis of the deposited data

How the results depend on the processing

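Of the conservative list's counts, 20 genes by nearest start site, 22 by gene body and 17 by promoter, the replicate 3 list gave 9 by nearest start site, 11 by gene body and 4 by promoter, and the replicate 2 list gave 11 by promoter. Of the 56 start sites, 21 in the conservative list, replicate 2 reached 11 and replicate 3 reached 4. Requiring an IDR of at most 0.001 gave 13 by nearest start site and 10 by promoter (30.3%, against 12.9% of all genes). The higher ranked part of the list gave 13 by nearest start site (39.4%, against 14.3%). Peaks that overlap all 3 replicate lists gave 7 by nearest start site, also at 50% overlap, 7 by gene body and 3 by promoter. That was 21.2% of the 33 genes by nearest start site, against 10.5% of all genes, but 21.2% by gene body, against 19.7%, and 9.09% by promoter, against 9.17%. With an IDR of at most 0.001 it was 39.4% by nearest start site, against 14.5%. Keeping peaks found in both remaining replicates gave, without each replicate, 7 to 12 by nearest start site, 7 to 12 by gene body and 3 to 8 by promoter, highest without replicate 3 each time. Without replicate 1 or 2 the share by gene body was 21.2%, against 21.5% and 21.2% of all genes, and by promoter 9.09%, against 10% and 9.8%. By nearest start site it was 21.2%, against 11.6% and 11.3%. Without replicate 3 it was 36.4% by nearest start site, against 13.6%, and 36.4% by gene body, against 24.9%. By promoter it was then 24.2%, against 12.1%. The mean of 14.7 genes per replicate ranged from 12 to 17.5 without 1 replicate. The cause was not tested. The replicate 1 and longest lists, the replicate 2 list by nearest start site and gene body, flanks of 0 and 5000 bp, promoter windows of 100 and 500 bp, start sites of all biotypes, a limit of 1000 bp, merged start sites and the 152 peaks put back left the counts they were run on within 1.5 times. No paired analysis was possible because the 3 replicates form 1 group, so no second group shares their numbers. Differences between gene sets within each replicate stand with the counts. Unknown read depth limits what a missing peak means.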
